A study of Homo sapiens with 12 samples.

Results

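The genes described here are 10 members of the TRAIL death pathway, measured in the breast cancer line MDA-MB-468. They are the ligand TNFSF10 (TRAIL), its 4 membrane receptors TNFRSF10A, TNFRSF10B, TNFRSF10C and TNFRSF10D, the related receptor FAS, the adaptor FADD, the initiator caspases CASP8 and CASP10 and their inhibitor CFLAR. They were taken as a list of named genes, with no threshold on a measured value, from the 56832 genes in the count files. The list was chosen with earlier results of these data known, so shares set against all genes are a description. Of the 10, 9 passed the filter on low counts and were among the 14549 genes tested, while TNFRSF10C was counted too rarely. The RNA-seq experiment had 4 groups of 3 libraries: cells with stable TRB from a pCDH-TRB vector given T3 or vehicle, and cells with the empty pCDH vector (EV) given T3 or vehicle. TRB is thyroid hormone receptor beta, encoded by THRB, and T3 is its hormone. T3 was given at 10 nM for 24 hours and the vehicle was NaOH. All 4 groups had first been starved of hormone for 24 hours in medium with charcoal-stripped serum, so the vehicle groups were hormone-depleted rather than untreated cells. The labels leave unsaid whether a vector line was 1 clone and whether replicate libraries were grown as separate cultures. The p-values below therefore measure only the spread between libraries.

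TRAIL is a cell surface ligand of the TNF family that can kill transformed cells while sparing most normal ones. TNFRSF10A (DR4) and TNFRSF10B (DR5) carry a death domain inside the cell, which recruits FADD, and FADD gathers CASP8 and CASP10, which then cut and activate the executioner caspases. TNFRSF10C and TNFRSF10D bind the ligand without passing on a full death signal, since the first lacks a death domain and the second has a truncated one, and they are known as decoy receptors. CFLAR (FLIP) resembles CASP8 but its long form lacks protease activity, and its presence in the complex can hold caspase activation back. FAS uses the same adaptor and caspases with its own ligand.

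THRB averaged 329 ± 16.7 CPM, a count scaled to library size with TMM composition factors, in TRB cells with T3, 140 ± 4.15 in TRB cells with vehicle, 38.5 ± 1.23 in EV cells with T3 and 43.4 ± 0.824 in EV cells with vehicle (SD, n = 3 each, as for every group mean below). THRB RNA was thus higher with T3 than with vehicle in TRB cells, and its part in the T3 effects below was not tested. All 6 basal-like epithelial markers averaged over 1 CPM. With T3 in TRB cells KRT5, KRT17, KRT6B and EPCAM fell, with log2 fold changes of -2.01, -1.61, -1.92 and -0.19, CDH3 rose (0.41) and EGFR did not pass (-0.05). Their adjusted p-values by edgeR were 4.3e-30, 7.13e-32, 1.42e-20, 5.78e-05, 1.45e-10 and 0.36. Of 3 hormone receptor and HER2 genes that a basal-like line should have low, PGR had no count in any library, ESR1 averaged 6.23 to 10.4 CPM by group and ERBB2 80.5 to 134 CPM. ESR1 and ERBB2 also rose with T3 in TRB cells, by 0.55 and 0.47 on the log2 scale (adjusted p = 0.000795 and 6.08e-13 by edgeR). The part of these marker shifts in the results below was not tested. The T-cell marker CD3E was at or near 0. The monocyte gene CD14 stood out among the leukocyte markers, at 186 ± 6.47 CPM in TRB cells with T3 and 19.6 ± 2.1 with vehicle, with PTPRC, the pan-leukocyte gene, averaging at most 0.32 CPM in any group. Among fibroblast markers COL1A1 averaged 15 to 20.3 CPM by group, and COL3A1 and PDGFRB at most 0.144 CPM. Of the endothelial markers PECAM1 averaged 1.03 to 2.21 CPM by group, highest in TRB cells with T3, and VWF at most 0.341 CPM. Gene totals ran from 10323437 to 11955825 in the T3 libraries and from 4241863 to 8904361 in the vehicle libraries, so every T3 library was deeper. The mitochondrial ribosomal RNA MT-RNR1 also separated the treatments, at 58.3 to 151 CPM in T3 libraries and 822 to 8046 CPM in vehicle libraries. Its part in the T3 effects below was not tested. Depth was equalised in an alternative in which every library was thinned, by 1 random draw, to the smallest total. Thinning discards most counts of the T3 libraries. A call lost in thinned libraries can therefore follow from fewer counts alone, which was not tested. In bulk RNA a change in the make-up of the culture and a change in RNA per cell cannot be told apart.

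In TRB cells, T3 raised the ligand, both death receptors and a decoy receptor, while the caspases and their inhibitor moved little or did not pass the test. TNFSF10 rose 6.36-fold, TNFRSF10D 4.7-fold, TNFRSF10A 2.67-fold, TNFRSF10B 1.44-fold and FADD 1.2-fold, while FAS and CASP10 fell and CASP8 and CFLAR did not pass the test. That is 7 of the 9 tested members, 5 higher and 2 lower, at an adjusted p below 0.05 by edgeR's quasi-likelihood test with Benjamini-Hochberg adjustment over all genes tested. The background is high, because 44.4% of all genes tested passed in this comparison, 22.4% higher and 21.9% lower. The T3 and vehicle libraries did not overlap for 7 of the 9, where this held for 51.9% of all genes. The median log2 fold change of the 9 members was 0.26, against -0.00 over all genes tested. A rise of at least 2-fold that passed the test was rarer, at 4.02% of all genes, and TNFSF10, TNFRSF10D and TNFRSF10A were among these.

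**Figure D1:**
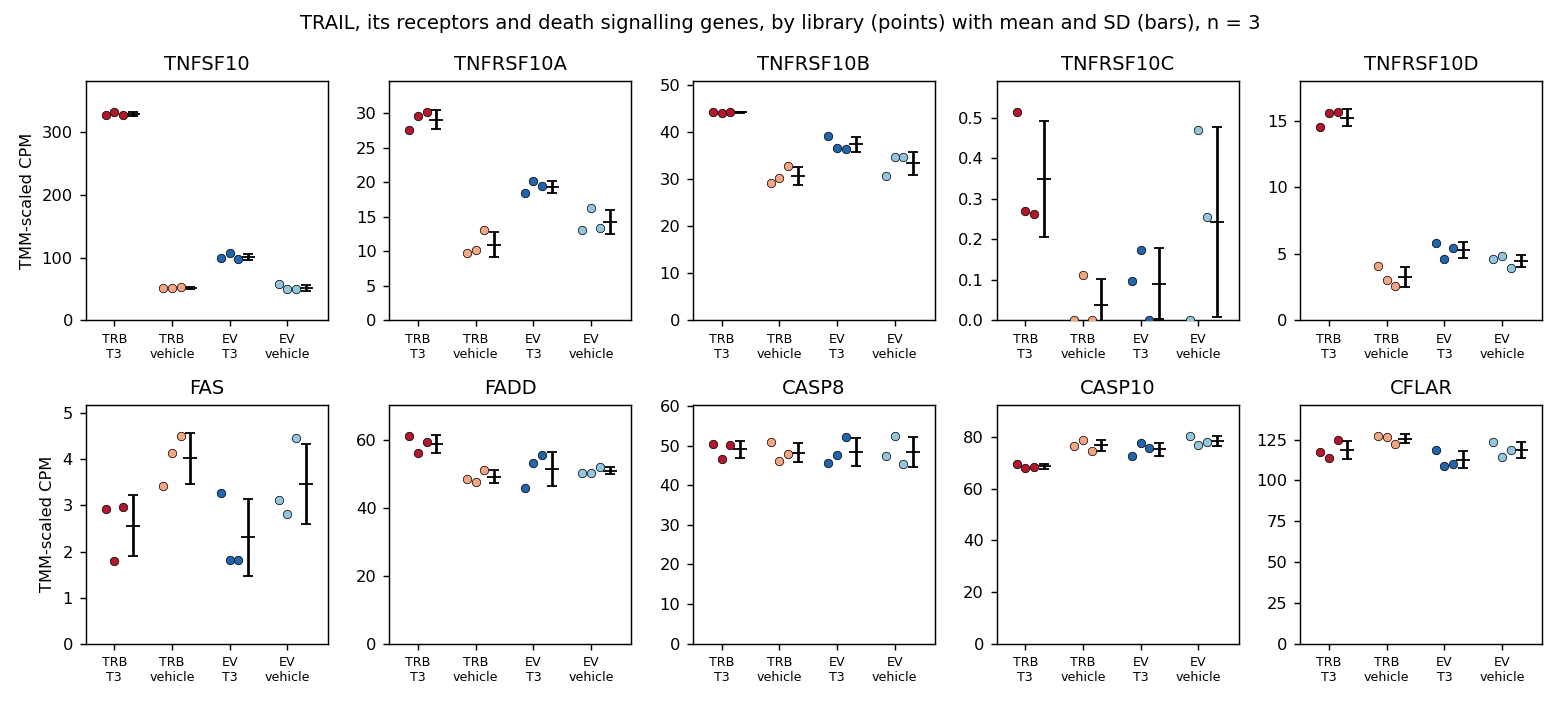
Level of each of the 10 genes in every library, as CPM on a linear axis that starts at 0, with the 4 groups side by side; points are libraries and bars are the group mean and SD (n = 3 each). TNFSF10, TNFRSF10A, TNFRSF10B and TNFRSF10D stand highest in all 3 TRB libraries with T3, whereas CASP8 is level across the 4 groups.

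TNFSF10 lies on chromosome 3, from 172505508 to 172523507 on the minus strand of GRCh38. It stood at 327, 332 and 327 CPM in the TRB libraries with T3, against 50.9, 51.0 and 53.4 CPM in the TRB libraries with vehicle. The EV libraries had 99.8, 107 and 96.9 CPM with T3, against 57.0, 49.0 and 49.0 CPM with vehicle. The 3 TRB libraries with T3 were far above all others, the EV libraries with T3 came next, and the vehicle libraries of both lines overlapped. The log2 fold change with T3 was 2.67 in TRB cells (SE 0.049, adjusted p = 6.17e-54 by edgeR) and 0.99 in EV cells (SE 0.058, adjusted p = 2.64e-22 by edgeR). With every library thinned to the smallest total, the value in TRB cells was again 2.67.

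The sequence just before the TNFSF10 start is shown because this gene had the largest T3 effect of the 9 tested and hormone receptors act through short response elements in DNA. It is the RefSeq window of 250 bases before the start on GRCh38.p14, chr3:172523431-172523680, written 5′ to 3′ on the gene's minus strand, with the letters matched to searched motifs in capitals. The RefSeq start that this window precedes lies inside the gene as GENCODE draws it, so part of the window falls within the span given above, and positions are counted from the RefSeq start.
TNFSF10: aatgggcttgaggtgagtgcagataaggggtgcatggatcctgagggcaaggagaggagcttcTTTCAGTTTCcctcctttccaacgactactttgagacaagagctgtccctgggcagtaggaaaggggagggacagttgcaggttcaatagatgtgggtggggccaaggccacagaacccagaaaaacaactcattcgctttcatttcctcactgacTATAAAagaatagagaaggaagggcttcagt
The first run in capitals is a match on the opposite strand, at position -187, to the core of the interferon-stimulated response element, which is GAAA followed after any 2 bases by GAAA. The second is TATAAA, the core of a TATA box, at position -31. Both strands were searched for these letters, for AGGTCA, the hexamer that thyroid hormone receptors bind in repeats, and for TTCNNNGAA, the gamma-activated site. Neither AGGTCA nor TTCNNNGAA is in this window. Of 35116 RefSeq windows of the same length, 3.02% held the interferon element core, 10.7% TATAAA, 12.1% AGGTCA and 6.57% TTCNNNGAA. RefSeq windows were at hand for 5 of the 10 genes, in 12 windows in all for TNFSF10, FAS, FADD, CASP8 and CFLAR, and AGGTCA was in none of them. The search covers only exact letters within 250 bases, and some of the FAS windows overlap each other. Sites with other letters or further away would be missed, and receptor binding was not tested.

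The 2 death receptors rose with T3 in TRB cells by different amounts. TNFRSF10A, on chromosome 8 from 23190452 to 23225126, stood at 27.5, 29.5 and 30.1 CPM in TRB cells with T3, against 9.73, 10.1 and 13.0 CPM with vehicle. Its level in EV cells was 18.4, 20.1 and 19.5 CPM with T3, against 13.0, 16.3 and 13.4 CPM with vehicle. Within each line the T3 libraries lay wholly above the vehicle libraries. The log2 fold change was 1.42 in TRB cells (SE 0.10, adjusted p = 5.47e-20 by edgeR) and 0.44 in EV cells (SE 0.11, adjusted p = 0.00867 by edgeR). The call in EV cells was not held when libraries were thinned (adjusted p = 0.151), or without EV vehicle replicate 1 or 3 (0.0554 and 0.17) or EV T3 replicate 2 (0.0516).

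TNFRSF10B, on the same chromosome from 23020133 to 23069179, stood at 44.2, 44.1 and 44.2 CPM in TRB cells with T3, against 29.2, 30.1 and 32.8 CPM with vehicle. The EV levels were 39.2, 36.5 and 36.3 CPM with T3, against 30.6, 34.6 and 34.8 CPM with vehicle. In both lines the groups did not overlap, but the EV difference was small. The log2 fold change was 0.53 in TRB cells (SE 0.07, adjusted p = 2.17e-09 by edgeR). In EV cells it was 0.15, with a 95% interval from -0.00 to 0.30 (adjusted p = 0.326 by edgeR).

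TNFRSF10D (chromosome 8, 23135588 to 23164030), a decoy receptor, had the largest T3 response of the 3 receptors of TRAIL that were tested. It stood at 14.5, 15.5 and 15.6 CPM in TRB cells with T3, against 4.07, 3.02 and 2.60 CPM with vehicle. EV cells had 5.78, 4.61 and 5.39 CPM with T3, against 4.57, 4.85 and 3.95 CPM with vehicle. The TRB libraries with T3 were set apart from the other 9, and the EV groups overlapped. The log2 fold change was 2.23 in TRB cells (SE 0.16, adjusted p = 2.38e-20 by edgeR) and 0.25 in EV cells, with a 95% interval from -0.13 to 0.64 (adjusted p = 0.573 by edgeR).

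TNFRSF10C (chromosome 8, 23102590 to 23117437) was near the limit of detection, with 21 counts over all 12 libraries. The counts were 6, 3 and 3 in TRB cells with T3, against 0, 1 and 0 with vehicle, and 1, 2 and 0 in EV cells with T3, against 0, 3 and 2 with vehicle. The summed counts gave a ratio of 8.36 in TRB cells, 12 counts with T3 against 1 with vehicle, with an exact 95% interval from 1.24 to 357 that covers counting error only. The EV ratio was 0.325, 3 counts against 5, with an interval from 0.0505 to 1.67. In a fit with no filter on low counts, the T3 effect in TRB cells had an adjusted p of 0.0774 by edgeR. The 4 receptor genes are close relatives in a single cluster and TNFRSF10C also overlaps another gene on its strand, so reads they share would be counted for no gene and these levels are uncertain.

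**Figure D2:**
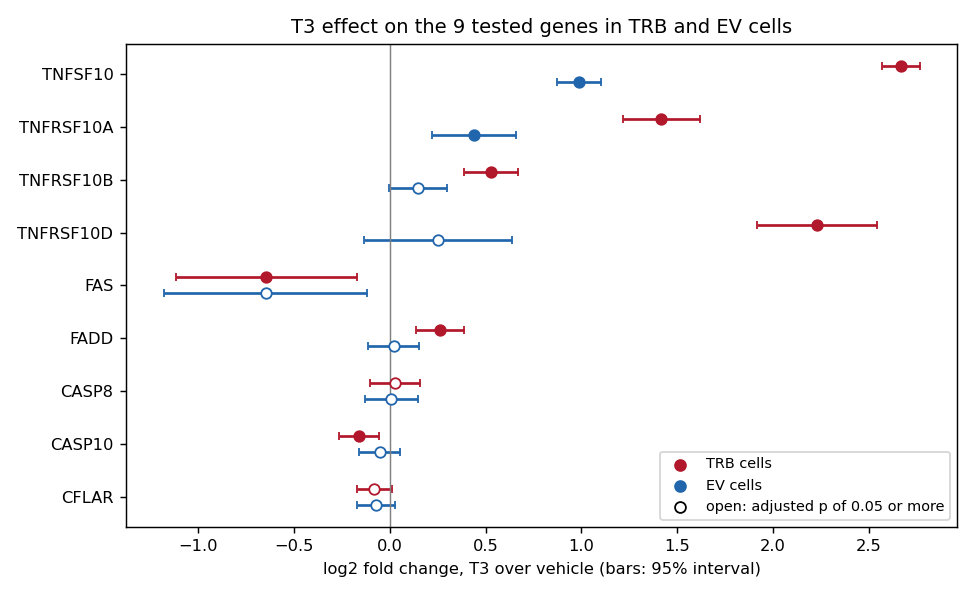
Log2 fold change with T3 for the 9 tested genes in TRB cells and in EV cells, with 95% intervals from the edgeR fit; filled points passed at an adjusted p below 0.05. In TRB cells the intervals of TNFSF10, TNFRSF10A, TNFRSF10B and TNFRSF10D are 2.57 to 2.77, 1.22 to 1.62, 0.39 to 0.67 and 1.92 to 2.54. Each lies above the interval of the same gene in EV cells, while both CASP8 intervals span 0.

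FADD (chromosome 11, 70203163 to 70207390), the adaptor shared by these receptors, stood at 61.2, 56.0 and 59.3 CPM in TRB cells with T3, against 48.6, 47.6 and 51.2 CPM with vehicle. The groups did not overlap, and the log2 fold change was 0.26 (SE 0.063, adjusted p = 0.000379 by edgeR). In EV cells it averaged 51.6 ± 5 CPM with T3 and 50.9 ± 1.02 CPM with vehicle, a log2 difference of 0.02 with a 95% interval from -0.12 to 0.15 (adjusted p = 0.937 by edgeR).

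The caspases and their inhibitor lie side by side on chromosome 2, CFLAR from 201116104 to 201176687, CASP10 from 201182881 to 201229406 and CASP8 from 201233443 to 201287711. CASP8, the main initiator caspase of the pathway, stood at 50.3, 46.5 and 50.2 CPM in TRB cells with T3, against 50.9, 46.0 and 47.8 CPM with vehicle. Its levels in the 2 groups overlapped. The log2 difference was 0.03 with a 95% interval from -0.10 to 0.16 in TRB cells and 0.01 with an interval from -0.13 to 0.15 in EV cells (adjusted p = 0.779 and 0.978 by edgeR). Both intervals lie below the change of any receptor that rose in TRB cells.

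CASP10, the second initiator caspase, stood at 69.7, 67.8 and 68.4 CPM in TRB cells with T3, against 76.5, 79.0 and 74.6 CPM with vehicle. The groups did not overlap, and the gene fell by 0.16 on the log2 scale (SE 0.052, adjusted p = 0.00817 by edgeR). That call was lost in thinned libraries (adjusted p = 0.234) and without TRB vehicle replicate 2 (0.0682). CFLAR stood at 118, 113 and 125 CPM in TRB cells with T3, against 127, 127 and 122 CPM with vehicle, which overlap. Its log2 difference was -0.08 with a 95% interval from -0.17 to 0.01 (adjusted p = 0.151 by edgeR), though without TRB T3 replicate 3 it was -0.12 (adjusted p = 0.0394). In EV cells the log2 differences were -0.05 for CASP10 and -0.07 for CFLAR (adjusted p = 0.698 and 0.512 by edgeR).

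FAS (chromosome 10, 88990582 to 89015785) was expressed at low levels. It stood at 2.91, 1.80 and 2.97 CPM in TRB cells with T3, against 3.42, 4.14 and 4.51 CPM with vehicle. In EV cells it stood at 3.28, 1.83 and 1.82 CPM with T3, against 3.13, 2.82 and 4.46 CPM with vehicle. The log2 fold change was -0.65 in both lines, with adjusted p = 0.0208 in TRB cells and 0.174 in EV cells by edgeR. The call in TRB cells was lost by DESeq2 (adjusted p = 0.0816) and without TRB vehicle replicate 2 or 3 (0.0718 and 0.088) or TRB T3 replicate 2 (0.148). In EV cells a call was gained without EV T3 replicate 1 (-0.96, adjusted p = 0.041). FAS overlaps ACTA2 on the opposite strand, and no source used here states whether counting used strand. The same limit holds for TNFRSF10A, TNFRSF10B, FADD and CFLAR, which have antisense or oppositely oriented neighbours, and for TNFSF10 and CASP10, which have pseudogenes on the opposite strand within their span.

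In EV cells, which carry only their own THRB, T3 raised TNFSF10 and TNFRSF10A and no other member passed the test. This is 2 of 9, where 4.54% of all genes tested passed, 2.84% higher and 1.7% lower. The median log2 fold change of the 9 members was 0.02, against -0.00 over all genes. TNFSF10 rose 1.98-fold and TNFRSF10A 1.35-fold.

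The T3 effect was larger in TRB cells than in EV cells for 5 of the 9 members by the interaction term of the same edgeR fit, where 23.9% of all genes tested passed, 12.3% in the direction of a higher value in TRB cells and 11.6% in the other direction. The difference in log2 fold change was 1.98 for TNFRSF10D (95% interval 1.45 to 2.51, adjusted p = 6.86e-09), 1.68 for TNFSF10 (1.52 to 1.84, adjusted p = 3.34e-28) and 0.98 for TNFRSF10A (0.67 to 1.29, adjusted p = 4.97e-07). It was 0.38 for TNFRSF10B (0.17 to 0.59, adjusted p = 0.00379). For FADD it was 0.24 (0.06 to 0.43, adjusted p = 0.0453), which was lost in 12 of 18 alternatives: by DESeq2 (0.143), with no filter on low counts (0.105), with a filter of CPM above 1 in 3 libraries (0.0529), in thinned libraries (0.313), and without TRB vehicle replicate 1 or 2, TRB T3 replicate 1 or 3, EV T3 replicate 1 or any EV vehicle replicate (0.0597 to 0.196). For CASP8 the difference was 0.02 with an interval from -0.17 to 0.21, for CFLAR -0.01 with an interval from -0.15 to 0.13, and for CASP10 -0.11 with an interval from -0.26 to 0.04 (adjusted p = 0.926, 0.946 and 0.328 by edgeR). FAS gave 0.00 with a wide interval, from -0.64 to 0.64.

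Without T3, TNFSF10 was level between TRB and EV cells, while the tested TRAIL receptors had lower means in TRB cells and TNFRSF10A alone passed. TNFSF10 averaged 51.7 ± 1.45 CPM in TRB cells and 51.7 ± 4.63 CPM in EV cells with vehicle, and the log2 difference was 0.02 with a 95% interval from -0.11 to 0.15 (adjusted p = 0.892 by edgeR). TNFRSF10A was lower in TRB cells, at 10.9 ± 1.78 CPM against 14.2 ± 1.79 CPM in EV cells, a log2 difference of -0.40 (SE 0.13, adjusted p = 0.0281 by edgeR). It was the only member of 9 to pass, where 15.3% of all genes tested passed, 7.86% higher and 7.4% lower. Its call was lost by DESeq2 (adjusted p = 0.075), in thinned libraries (0.0609), without TRB vehicle replicate 1 or 2 (0.128 and 0.134) and without EV vehicle replicate 2 (0.236). TNFRSF10D, the decoy, gave -0.45 with a 95% interval from -0.90 to 0.01 (adjusted p = 0.198 by edgeR). TNFRSF10B gave -0.14 (adjusted p = 0.306 by edgeR). These differences between the vehicle groups are part of the interaction values given above.

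With T3 in both lines, 6 of 9 members differed between TRB and EV cells, 5 higher and 1 lower, where 40.7% of all genes tested passed, 21% higher and 19.7% lower. TNFSF10 was 3.26-fold, TNFRSF10D 2.89-fold, TNFRSF10A 1.5-fold, TNFRSF10B 1.18-fold and FADD 1.14-fold higher in TRB cells (adjusted p = 3.72e-46, 8.82e-17, 1.21e-08, 0.00115 and 0.00735 by edgeR). CASP10 was lower by 0.13 on the log2 scale (adjusted p = 0.0234 by edgeR), at 68.6 ± 0.947 CPM in TRB cells and 75.3 ± 2.55 CPM in EV cells. The call for TNFRSF10B was lost in thinned libraries (0.0958), as was that for FADD (0.24), which was also lost without TRB T3 replicate 1 (0.0624) or EV T3 replicate 1 (0.161). The call for CASP10 was lost by DESeq2 (0.0681) and without TRB T3 replicate 2 (0.0621) or EV T3 replicate 2 (0.109). The 4 comparisons share groups and are not independent of each other.

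Levels of different genes were compared after division by the length of their exons in kilobases. On that scale TNFSF10 averaged 94.7 ± 0.848 CPM per kb in TRB cells with T3, 14.9 ± 0.417 in TRB cells with vehicle, 29.1 ± 1.43 in EV cells with T3 and 14.9 ± 1.33 in EV cells with vehicle. FADD was at 32 ± 1.41, 26.7 ± 1.02, 28 ± 2.72 and 27.7 ± 0.553 CPM per kb in the same 4 groups. By exon length the ligand was above the adaptor in TRB cells with T3 and within the spread of it in EV cells with T3. With the longest coding transcript the ligand was above the adaptor in EV cells with T3 too, at 51.8 ± 2.55 against 28 ± 2.72 CPM per kb. It was below the adaptor in both vehicle groups by exon length, but about level with it there by the longest coding transcript, at 26.5 ± 0.742 CPM per kb in TRB cells and 26.5 ± 2.37 in EV cells. TNFRSF10A and TNFRSF10B were at 9.85 ± 0.465 and 8.56 ± 0.012 CPM per kb in TRB cells with T3, against 3.7 ± 0.605 and 5.95 ± 0.363 in TRB cells with vehicle. With this length TNFRSF10A was the lower of the 2 death receptors in TRB cells with vehicle and the higher with T3. With the longest coding transcript it was again lower with vehicle, but level with TNFRSF10B with T3, at 10.7 ± 0.506 against 10.7 ± 0.015 CPM per kb. In EV cells TNFRSF10A and TNFRSF10B were at 6.55 ± 0.289 and 7.24 ± 0.314 CPM per kb with T3, and at 4.82 ± 0.608 and 6.46 ± 0.462 with vehicle. The order of CASP8 and CASP10 depended on which transcript length was used and is not given.

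The 4 receptors summed to 22.9 ± 0.561 CPM per kb in TRB cells with T3 and 10.6 ± 0.781 with vehicle, and to 15.3 ± 0.184 in EV cells with T3 and 12.7 ± 1.12 with vehicle. The decoy receptors TNFRSF10C and TNFRSF10D held 19.6%, 19.6% and 19.5% of that sum in the TRB libraries with T3, against 11.4%, 8.99% and 6.39% in the TRB libraries with vehicle. In EV cells their share was 10.9%, 9.13% and 10.0% with T3, against 11.1%, 11.7% and 10.0% with vehicle. The TRB libraries with T3 held the 3 highest shares and the other 9 libraries overlapped across groups. The mean share was 10.7 percentage points higher with T3 in TRB cells and 0.936 points lower in EV cells. Nearly all of it came from TNFRSF10D, given the low counts of TNFRSF10C. With the length of the longest coding transcript the shares were 17.4% in TRB cells with T3, 7.66% in TRB cells with vehicle, 8.71% in EV cells with T3 and 9.52% in EV cells with vehicle. The log2 ratio of CFLAR to CASP8 per kb averaged -0.36 ± 0.046 in TRB cells with T3 and -0.26 ± 0.073 with vehicle, and -0.42 ± 0.156 in EV cells with T3 and -0.34 ± 0.153 with vehicle. With the longest coding transcripts the means were -1.05 in TRB cells with T3 and -0.94 with vehicle, and -1.10 in EV cells with T3 and -1.03 with vehicle. The negative sign rests on the lengths, 22.5 kb of exons for CFLAR and 7.24 kb for CASP8. Before that division CFLAR was the higher in every group, at 119 ± 5.78 against 49 ± 2.15 CPM in TRB cells with T3. Which transcripts were expressed is unknown, so the order of CFLAR and CASP8 is uncertain. By exon length the ratios overlapped between T3 and vehicle in EV cells, and in TRB cells the highest value with T3 was -0.32 and the lowest with vehicle was -0.31.

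**Figure D3:**
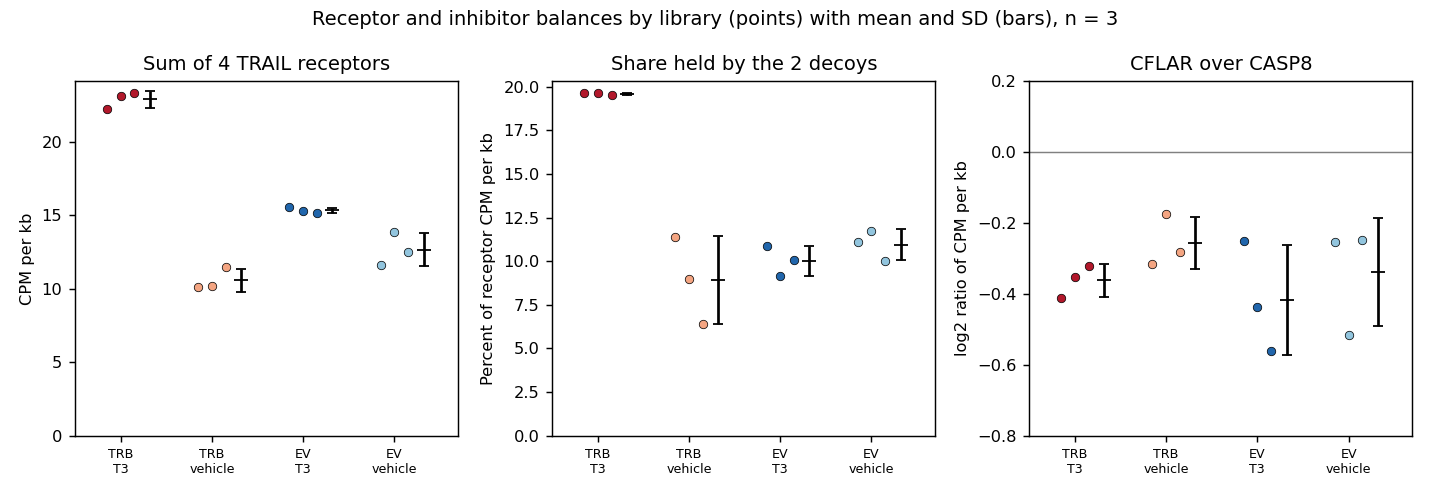
Summed level of the 4 receptors in CPM per kb, share of that sum held by the decoys TNFRSF10C and TNFRSF10D in percent, and log2 ratio of CFLAR to CASP8 per kb, by group; points are libraries and bars are the mean and SD (n = 3 each). The decoy share is 19.5% to 19.6% in TRB cells with T3 and 6.39% to 11.7% elsewhere, while the group means of the CFLAR to CASP8 ratio lie between -0.42 and -0.26.

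The genes around the receptor and caspase clusters were examined as well, within 300 kb of each cluster, and the neighbours named here were chosen after their values were seen. Next to TNFRSF10A on chromosome 8, CHMP7, which encodes a subunit of the ESCRT-III membrane-remodelling machinery, averaged 125 ± 3.87 CPM in TRB cells with T3 and 49.5 ± 2.51 CPM with vehicle (log2 fold change 1.34, SE 0.053, adjusted p = 8.57e-34 by edgeR). LOXL2, a lysyl oxidase that crosslinks collagen, averaged 30.5 ± 1.1 CPM in TRB cells with T3 and 13.6 ± 1.74 CPM with vehicle (1.18, SE 0.093, adjusted p = 7.7e-18 by edgeR). R3HCC1, between them, and ENTPD4, beyond LOXL2, were not called (0.06 and 0.12, adjusted p = 0.55 and 0.13 by edgeR). RHOBTB2, beside TNFRSF10B, fell by 0.39 (adjusted p = 0.00043 by edgeR), though not in thinned libraries (0.139). In EV cells CHMP7 averaged 63.5 ± 1.07 CPM with T3 and 51.1 ± 1.4 CPM with vehicle, and its log2 fold change was 0.32 (adjusted p = 0.000194 by edgeR, 0.0679 in thinned libraries). LOXL2 also rose there, by 0.37 (adjusted p = 0.0209 by edgeR), a call lost in 5 of 13 alternatives. RHOBTB2 gave 0.04 in EV cells (adjusted p = 0.907 by edgeR).

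Around CFLAR, CASP10 and CASP8 the T3 effects in TRB cells were smaller. FAM126B rose by 0.41 on the log2 scale and TRAK2, a mitochondrial trafficking adaptor, fell by 0.28 (adjusted p = 4.7e-09 and 4.3e-07 by edgeR). STRADB fell by 0.40 (adjusted p = 0.0015 by edgeR), which was lost in thinned libraries (0.341). BZW1, CLK1, PPIL3, NIF3L1, ORC2 and NDUFB3 did not pass.

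**Figure D4:**
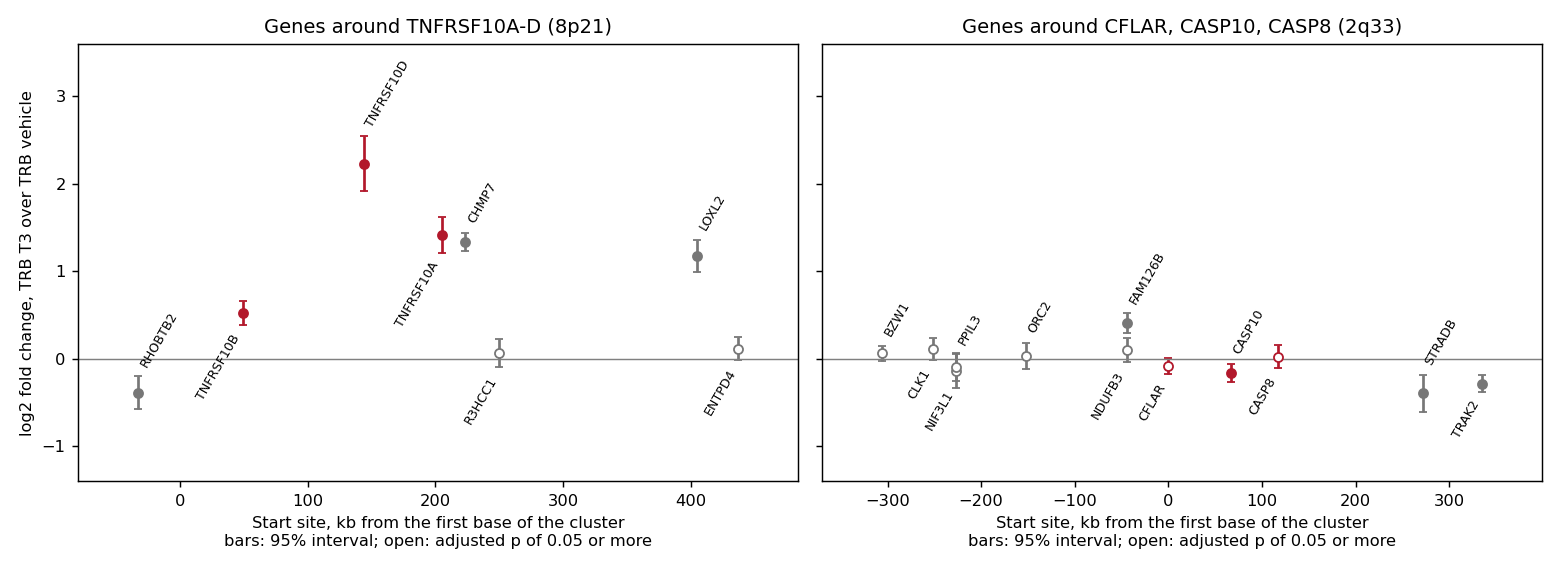
Log2 fold change with T3 in TRB cells for the tested genes of the receptor and caspase clusters (red) and their neighbours (grey), placed by start site in kb from the first base of the cluster, with 95% intervals; open points did not pass the edgeR test. TNFRSF10D, TNFRSF10A, CHMP7 and LOXL2 exceed 1, with R3HCC1 near 0 between them, and no gene of the caspase cluster reaches 1.

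A list of 34 further genes of extrinsic and shared death signalling was read beside the 10 members, and 29 of them were tested. In TRB cells T3 raised 11 and lowered 6 of the 29, a share to be read against the 44.4% of all genes that passed, and the median log2 fold change was 0.12. All 5 tested ligand and receptor genes of the list passed, 3 higher and 2 lower. TNFRSF25 (DR3), a death receptor for another TNF family ligand, averaged 12.8 ± 0.619 CPM with T3 and 7.18 ± 1.52 CPM with vehicle (log2 fold change 0.84, SE 0.13, adjusted p = 2.4e-07 by edgeR). TNFRSF12A, the receptor for TWEAK, averaged 69.3 ± 3.51 CPM with T3 and 48.5 ± 3.76 CPM with vehicle (0.52, SE 0.061, adjusted p = 3.02e-11 by edgeR). TWEAK itself, TNFSF12, was lower, at 2.07 ± 0.163 CPM with T3 and 3.69 ± 0.832 CPM with vehicle (-0.84, SE 0.24, adjusted p = 0.00329 by edgeR, 0.0874 in thinned libraries). TNFRSF21 (DR6) fell to 74.9 ± 3.46 CPM with T3, against 98.4 ± 2.76 CPM with vehicle (-0.39, SE 0.052, adjusted p = 1.19e-09 by edgeR).

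Of the 9 tested genes of complex and ubiquitin signalling, 4 rose and 1 fell with T3 in TRB cells, where 22.4% of all genes tested were higher and 21.9% lower. CYLD, a deubiquitinase that trims ubiquitin chains on RIPK1, stood at 131 ± 1.08 CPM with T3 and 64 ± 4.07 CPM with vehicle (log2 fold change 1.03, SE 0.051, adjusted p = 3.07e-28 by edgeR). MLKL, the effector of necroptosis, averaged 34.4 ± 2.39 CPM with T3 and 23.6 ± 0.748 CPM with vehicle (0.55, SE 0.078, adjusted p = 1.39e-08 by edgeR), while RIPK3, the kinase that activates it, had no count in any library. Of the 4 inhibitors of apoptosis 1 rose and 2 fell, and of the 11 genes of the mitochondrial step and the executioners 3 rose, 1 fell and 7 did not pass. These shares by role were not tested against that background. FASLG, the ligand of FAS, had no count in any library either, and 3 counts, the limit that a count of 0 allows, correspond to 0.249 to 0.722 CPM per library. TNF had 30 counts in all and was not tested.

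In EV cells only TNFRSF12A of the 29 list genes passed with T3, where 4.54% of all genes did, at 75.4 ± 0.55 CPM with T3 and 57.2 ± 4.94 CPM with vehicle (log2 fold change 0.39, adjusted p = 4.92e-06 by edgeR). CYLD gave 0.08, MLKL 0.22, TNFRSF25 0.06 and TNFRSF21 -0.02 there (adjusted p = 0.572, 0.104, 0.913 and 0.897 by edgeR). By the interaction term, 10 of 29 list genes responded differently to T3 in TRB cells than in EV cells, where 23.9% of all genes did. CYLD differed by 0.95 (adjusted p = 2.13e-16), TNFRSF25 by 0.79 (0.00345, and 0.324 in thinned libraries) and TNFRSF21 by -0.37 (3.02e-05) in edgeR's test.

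Without T3, 4 of 29 list genes differed between TRB and EV cells, all lower in TRB cells. Of all genes tested 15.3% did, 7.86% higher and 7.4% lower, so the number of list genes is near the background. BIRC3, an inhibitor of apoptosis and ubiquitin ligase, was lower in TRB cells, at 32.5 ± 2.45 CPM against 53.1 ± 1.88 CPM in EV cells (log2 difference -0.70, adjusted p = 2.49e-11 by edgeR). TNFRSF21 and TNFRSF12A were lower by 0.19 and 0.25 (adjusted p = 0.00735 and 0.00715 by edgeR), the first not without EV vehicle replicate 1 (0.0911) and the second not without TRB vehicle replicate 2 (0.0975), EV vehicle replicate 2 (0.129) or in thinned libraries (0.0598). MLKL (-0.27) passed narrowly (adjusted p = 0.0326 by edgeR) and was lost in 8 of 13 alternatives (0.0543 to 0.203), which were DESeq2, no filter, thinning and leaving out TRB vehicle replicate 2 or 3 or any EV vehicle replicate. With T3 in both lines, 12 of 29 list genes differed, 6 higher and 6 lower in TRB cells. Of all genes tested 40.7% did, 21% higher and 19.7% lower, so this number too is near the background. BIRC5 (survivin) averaged 133 ± 2.31 CPM in TRB cells and 167 ± 10.6 CPM in EV cells (-0.34, adjusted p = 1.28e-09 by edgeR), and SHARPIN, a subunit of the linear ubiquitin ligase, 33.8 ± 1.4 CPM and 42.9 ± 0.423 CPM (-0.35, adjusted p = 6.07e-06 by edgeR). CYLD and TNFRSF25 were higher in TRB cells by 0.97 and 0.81, and TNFRSF21 and TNFSF12 were lower by 0.57 and 0.77 (adjusted p = 2.11e-28, 7.23e-08, 2.17e-16 and 0.00498 by edgeR). The TNFSF12 difference was lost in thinned libraries (0.124) and without EV T3 replicate 2 (0.0545).

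**Figure D5:**
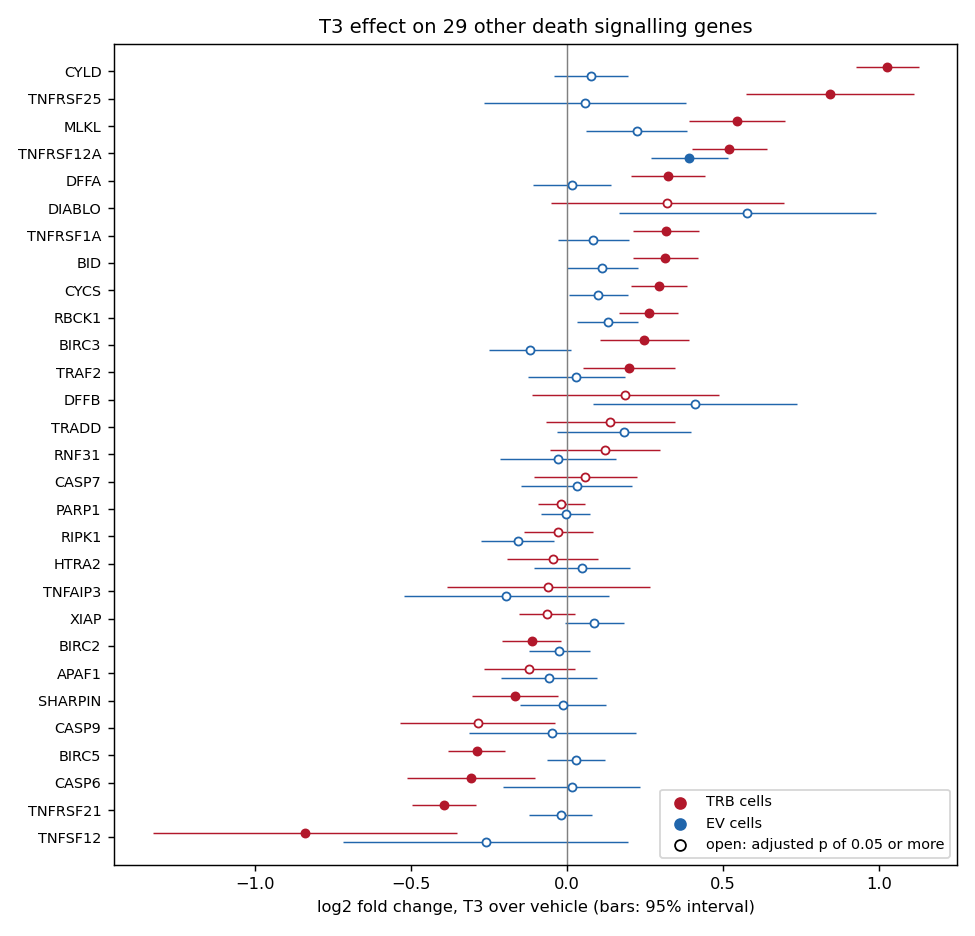
Log2 fold change with T3 in TRB cells and in EV cells for the 29 tested genes of the death pathway list, ordered by the value in TRB cells, with 95% intervals; filled points passed the edgeR test at an adjusted p below 0.05. CYLD (1.03) is the highest point in TRB cells, TNFSF12 (-0.84) the lowest, and in EV cells only TNFRSF12A (0.39) is filled.

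The genes whose levels followed TNFSF10 most closely over the 12 libraries were TNS4, CLIC5, SYT12, TP53INP2 and SLC9A3R1, with Pearson's r of log2 CPM of 0.998, 0.996, 0.995, 0.994 and 0.993. These correlations are a description, since the libraries fall into 4 groups and share their treatment, depth and line. TNS4, a tensin of focal adhesions, averaged 157 ± 8.14 CPM in TRB cells with T3, 19.1 ± 1.54 in TRB cells with vehicle, 41.8 ± 3.35 in EV cells with T3 and 20.3 ± 0.757 in EV cells with vehicle. As for TNFSF10, the TRB libraries with T3 were highest, the EV libraries with T3 next, and the vehicle groups lowest and close to each other.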

How the data were processed

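Whole-number counts per gene were used for 12 libraries of total RNA from MDA-MB-468, a basal-like breast cancer cell line, made with the NEBNext Ultra II kit per the labels' protocols. The submitters' processing notes name CASAVA 1.7, STAR 2.7, HTSeq 0.10, DESeq2 and the build hg38, and the authors deposited the counts without normalization. In each file 5 summary lines that name no gene held 31.9% to 39.2% of each file's total and were left out, and 1 of them holds alignments to several places, so reads shared by near-identical genes went to no gene. A table of normalized values was not used.

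Genes were kept by filterByExpr (minimum count 10, minimum total 15) and tested with edgeR 4.0.16 (R 4.3.3), a quasi-likelihood fit of 4 group means with TMM scaling, all 12 libraries (8 residual degrees of freedom) and Benjamini-Hochberg adjustment over 14549 genes, called at an adjusted p below 0.05. SEs come from the log2 fold change and its F value. The steps were also run on simulated counts. That simulation used 1 mean spread for all genes, unlike the data, and no result above rests on it. Gene positions and exon lengths are from GENCODE v29 on GRCh38, and promoter windows from RefSeq. Alternatives were DESeq2 1.42.0, RLE scaling, no filter, CPM above 1 in 3 libraries, the compared groups alone, a replicate block, thinning to the smallest library and leaving out each library. The rule for named genes takes all 10 members, THRB, the 6 list genes with the largest called change per comparison and the 5 genes most like TNFSF10. A further gene of the death pathway list is not reported here. The members and lists were chosen with earlier results of these data known.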

Additional observations from a re-analysis of the deposited data

Results flagged for a closer look

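By the interaction term of the edgeR fit, the T3 effect differed between TRB and EV cells for 5 of the 9 tested members. These passed at an adjusted p below 0.05, as did 23.9% of all genes tested. As the effect in TRB cells minus that in EV cells on the log2 scale, the difference was 1.98 for TNFRSF10D, 1.68 for TNFSF10, 0.98 for TNFRSF10A, 0.38 for TNFRSF10B and 0.24 for FADD. Among the named genes of the death pathway list it was 0.95 for CYLD, 0.79 for TNFRSF25, 0.37 for BIRC3, 0.32 for MLKL, -0.37 for TNFRSF21 and -0.32 for BIRC5. BIRC3 averaged 38.7 ± 1.58 CPM in TRB cells with T3 and 32.5 ± 2.45 CPM with vehicle, and 48.6 ± 1.82 CPM in EV cells with T3 and 53.1 ± 1.88 CPM with vehicle (SD, n = 3 each). BIRC5 averaged 133 ± 2.31 CPM in TRB cells with T3 and 162 ± 8.12 CPM with vehicle, and 167 ± 10.6 CPM in EV cells with T3 and 164 ± 6.96 CPM with vehicle. The difference for FADD was lost in 12 of 18 alternatives, and that for TNFRSF25 in thinned libraries (adjusted p = 0.324 by edgeR). The difference for MLKL was lost in 7 of 18 alternatives, which were DESeq2 (adjusted p = 0.106), no filter, thinning and leaving out TRB T3 replicate 2, TRB vehicle replicate 2, EV T3 replicate 3 or EV vehicle replicate 3.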

How the results depend on the processing

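Limits: T3 and vehicle libraries differ in depth, and FAS and TNFRSF10C rest on few counts, so that calls for FAS changed with the setting while its T3 effect stayed negative in both lines. The T3 effects on TNFSF10, TNFRSF10A, TNFRSF10B and TNFRSF10D in TRB cells, and their differences from EV cells, kept direction and call in every alternative run. Of the alternative values for single members, 556 kept direction and call, 34 lost a call, 2 gained one and 38 changed sign.

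The count of members that passed with T3 in EV cells (2) was 1 in thinned libraries and 1 to 3 with a library left out. Of all genes tested, 2.83% passed there in thinned libraries and 1.84% to 4.57% with a library left out. The count of members for TRB against EV cells without T3 (1) was 0 by DESeq2 and in thinned libraries, and 0 to 1 with a library left out. The share of all genes there was 10.6% by DESeq2, 12.5% thinned and 10.5% to 12.4% with a library left out. For the death pathway list, TRB against EV cells without T3 (4) gave 2 to 4 with a library left out. T3 in EV cells (1) gave 1 to 2 with a library left out. The interaction (10) gave 6 by DESeq2 and with no filter and 5 thinned. Over all genes tested, the interaction passed for 17.4% by DESeq2, 9.81% with no filter and 19% thinned, against 23.9% in the main fit.

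Signs changed for the values given next, and the cause was not tested. The FAS interaction was -0.022 by DESeq2, -0.0056 with no filter, -0.0030 with the CPM filter, -0.015 with the replicate block and -0.78 thinned. In thinned libraries TRB against EV cells with T3 gave -0.28 for FAS and -0.00035 for CASP8, and T3 in EV cells gave -0.018 for RHOBTB2. With a library left out, CASP8 ran from -0.0070 to 0.068 (T3 in TRB cells), -0.056 to 0.073 (T3 in EV cells), -0.070 to 0.059 (TRB without T3), -0.033 to 0.068 (TRB with T3) and -0.045 to 0.084 (interaction). FADD with T3 in EV cells ran from -0.038 to 0.093, TNFSF10 for TRB without T3 from -0.023 to 0.077, the CFLAR interaction from -0.055 to 0.022, the FAS interaction from -0.27 to 0.31 and RHOBTB2 with T3 in EV cells from -0.083 to 0.13.

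The labels do not say whether the replicate numbers pair the libraries. Over all genes tested, deviations from the group mean correlated between -0.124 and 0.083 for same-numbered libraries. These values cannot show whether such libraries shared a culture or batch, since noise in weakly expressed genes lowers them too. With the replicate block the members that passed numbered 7 (T3 in TRB cells), 2 (T3 in EV cells), 1 (TRB without T3), 6 (TRB with T3) and 5 (interaction), the same counts as without it. The shares of all genes tested that passed with the block were 44.2%, 4.45%, 15.1%, 40.5% and 24% in that order.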
